A study of Mus musculus with 20 samples.

Results

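The integrin genes Itga3, Itga4, Itga5, Itga6, Itga9, Itgal, Itgam, Itgb1, Itgb2 and Itgb7 were followed in the DNA methylome of mouse hematopoietic stem cells (HSCs) after repeated cycles of 5-fluorouracil (5FU). Every deposited bin of 100 bp from 5 kb upstream of the first RefSeq start to the end of each gene was taken, which gave 660 of 1201951 bins. Methylation was measured by reduced representation bisulfite sequencing (RRBS), which reads CpG sites in restriction fragments rich in CpG. The groups were 0x (untreated, n = 4), 2x (2 cycles of 5FU, n = 6), 4x (4 cycles, n = 4) and 10x (10 cycles, n = 6). All mice were female C57BL/6J and 3 months old when the study began, 5FU was injected once per 3 weeks, and HSCs were taken 1 month after the last cycle. According to the methods the cells were sorted from bone marrow as live, lineage-negative, cKit+, Sca1+, CD34-, Flk2- and CD150+ cells, whereas the labels give blood as the tissue. An antibody to CD11b, the product of Itgam, was among those that removed lineage-positive cells in this sort. The labels do not state that each sample is a separate mouse, so that the p-values below speak to the spread among samples and may reflect technical error alone. The files give percent methylation without read numbers, so the depth behind each value is unknown. The same 4 samples of 0x serve as the control in every comparison.

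Integrins are receptors made of an alpha and a beta subunit that tie a cell to the surrounding matrix or to other cells. In the bone marrow they hold HSCs in their niche, guide them back to it after transplantation, and later direct mature leukocytes out of the blood. The beta1 chain pairs with the alpha3, alpha4, alpha5, alpha6 and alpha9 chains, the beta2 chain with the alphaL and alphaM chains of leukocytes, and the beta7 chain with alpha4. Methylation of CpG sites near an active start site is usually low, and that of gene bodies usually high.

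The sequences below are those of the bins on which the results turn, each as a run of 100 bases of GRCm38 (the assembly of mm10) with CpG sites in capitals, written on the strand of the gene. The first 2 lie upstream of Itga3 and show the largest promoter differences in the deposited values, the next 2 hold the edges of exon 14 of Itga9, where methylation was lowest in 10x, and the last 2 are intron bins of Itgb2.
Itga3, chr11:95077200-95077299, minus strand: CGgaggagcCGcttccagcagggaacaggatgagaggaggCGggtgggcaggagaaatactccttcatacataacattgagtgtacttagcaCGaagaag
Itga3, chr11:95077700-95077799, minus strand: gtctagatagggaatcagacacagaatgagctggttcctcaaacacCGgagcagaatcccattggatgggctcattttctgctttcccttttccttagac
Itga9, chr9:118689200-118689299, plus strand: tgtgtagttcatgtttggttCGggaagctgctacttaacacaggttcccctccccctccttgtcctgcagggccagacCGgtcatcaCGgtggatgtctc
Itga9, chr9:118689400-118689499, plus strand: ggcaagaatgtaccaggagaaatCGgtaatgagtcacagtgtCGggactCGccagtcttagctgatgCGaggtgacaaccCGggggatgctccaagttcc
Itgb2, chr10:77537100-77537199, plus strand: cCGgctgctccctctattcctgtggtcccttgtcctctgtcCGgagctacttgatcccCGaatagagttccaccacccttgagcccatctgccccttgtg
Itgb2, chr10:77548900-77548999, plus strand: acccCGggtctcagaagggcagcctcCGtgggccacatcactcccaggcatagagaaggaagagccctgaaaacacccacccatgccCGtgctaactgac
The upstream Itga3 bins hold 4 CpG sites and 1 CpG site, and the Itga9 bins 3 and 5. Each bin of Itgb2 holds 3.

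The authors filled a bin that was missing in a sample with the mean of its group, and the files do not mark which values were filled. Exact repeats of a value inside one group, apart from 0 and 100, were therefore taken as a sign of filling. Of the 660 integrin bins, 247 (37.4%) held such repeated values, and they are described below without a test. In 114 of these 247 bins at least 1 group held a single value other than 0 or 100 in all its samples, and in 33 bins at least 2 groups held the very same value throughout. Filling each group with its own mean would not by itself make groups alike, and how these shared values arose was not tested. A further 126 bins had no repeated value but stood at 0 or at 100 in all samples of some group, where the number of samples actually measured is unknown. All 20 samples were at the same limit in 255 bins, 227 of them at 100% and 28 at 0%. This left 32 bins (4.85%) in which every group varied and no value was repeated, and these were tested. A value filled in only 1 sample of a group does not repeat and so was not detected. The tested bins may therefore still hold filled values, which then count as measured in their means, SDs and p-values. Bins in which a group held a single value throughout were thus outside the test, whatever the other groups showed. The tested bins were 12 promoter bins (within 1 kb of a curated RefSeq start of the gene), 18 gene body bins and 2 bins farther upstream. Itgam, Itgb2 and Itgb7 had no tested promoter bin, and Itga4, Itga5, Itgal and Itgb1 had no tested bin in the gene body. Tested promoter bins held a median of 9 CpG sites, and tested gene body bins 4. In the tested integrin bins, values of exactly 0 or 100 made up 34.4 to 56.2% of each 0x sample, 40.6 to 75.0% of each 2x sample, 15.6 to 56.2% of each 4x sample and 21.9 to 43.8% of each 10x sample. The part of this difference between groups in the results was not tested.

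None of the 32 tested integrin bins differed between treated and untreated HSCs at an adjusted p under 0.05 with at least 10 percentage points of difference (limma, Benjamini-Hochberg adjustment over 84131 bins). Over all bins tested the share that passed was 0.00357% for 2x, 0.00713% for 4x and 0.0131% for 10x, and 0.00119% for a slope over the number of cycles. At an unadjusted p under 0.05 and at least 10 points, 0 of the 32 bins were past the threshold in 2x, 0 in 4x and 1 in 10x, where all bins gave 2.86%, 2.85% and 4.18%. The integrin share in 10x, 3.12%, was near that background. Without the minimum difference 0, 0 and 1 of the bins had an unadjusted p under 0.05, and 2 for the slope. The median difference from 0x over the 32 bins was -0.0423 points for 2x, -1.25 for 4x and 0.0917 for 10x, beside medians of 0.179, 0.320 and 0.509 over all bins tested. In none of these bins did the samples of a treated group lie wholly above or below those of 0x, where over all bins tested 0.676% did so for 2x, 1.95% for 4x and 1.32% for 10x.

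**Figure D1:**
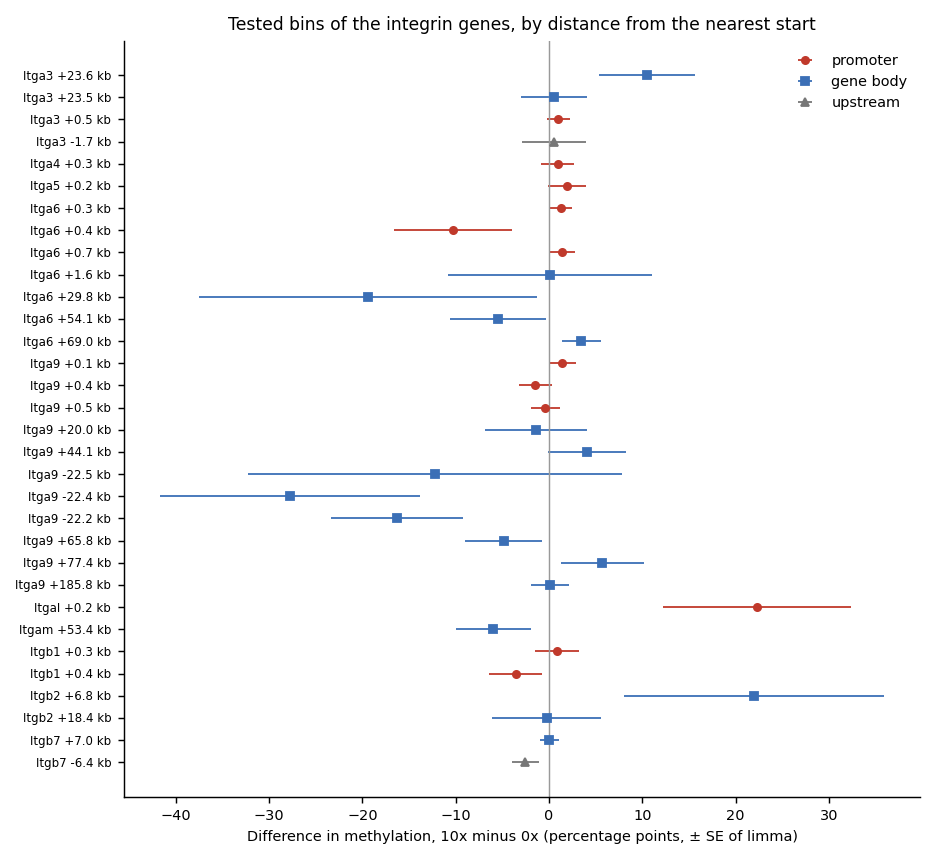
Difference in methylation between 10x and 0x (x axis, percentage points) for each of the 32 tested bins (rows, named by gene and by distance from the nearest curated start, minus for upstream of it), with bars for the SE of limma. Promoter bins lie near 0 apart from Itgal at 22.3 and Itga6 at -10.3 points, and the exon 14 bins of Itga9 lie at -27.8 and -16.3.

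In their tested bins the promoters of the beta1 group were low in methylation on average in untreated HSCs and after each number of cycles, while over all deposited promoter bins Itga3 averaged 35.8 to 41.9% and Itga9 19.2 to 20.6% by group. Both of these genes also have an internal curated start, and bins within 1 kb of it count as promoter. The 7 members with tested promoter bins were fitted among 15157 gene promoters, and 0 of 7 passed in any comparison (limma, adjusted p of 0.865 or more). The shares of all promoters that passed were 0.0132% for 2x and 0% for 4x, 10x and the slope. No member had an unadjusted p under 0.05, against 3.25% of all promoters for 2x, 3.66% for 4x, 5.77% for 10x and 3.46% for the slope. Averaged over the 20 samples, 6 of the 7 promoters lay between 1.26% and 2.99%, where the median of all promoters tested was 3.39%. Itgal, at 12.4%, was the one above it.

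Itgb1, on chr8:128685654-128733579, encodes the beta chain shared by the largest family of integrins, whose loss is known to abolish homing of HSCs to the marrow. Its promoter, over 2 bins, averaged 3.58% ± 3.09 in 0x (SD, n = 4), 1.17% ± 2.07 in 2x (n = 6), 1.21% ± 1.05 in 4x (n = 4) and 2.20% ± 2.15 in 10x (n = 6). The 10x group differed from 0x by -1.37 points (SE 1.62, limma, adjusted p = 0.887). Its gene body had no tested bin, and the 10 deposited body bins averaged between 96.0% in 10x and 99.4% in 4x.

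Itga4, on chr2:79255426-79333114, encodes the alpha4 chain, which binds VCAM-1 and fibronectin and is a main homing receptor of HSCs. Its single tested promoter bin, in a coding exon, stood at 0, 0, 0 and 5.34% in 0x. In 2x a single sample, at 4.26%, was above 0, and the highest sample of 4x was at 1.57%. In 10x the lowest value was 0, the median 1.99 and the highest 6.38%. The samples of all 4 groups overlapped, and 10x differed from 0x by 0.925 points (SE 1.60, limma, adjusted p = 0.923).

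Itga5, on chr15:103344286-103366791, encodes the alpha5 chain of the fibronectin receptor. In its tested promoter bin 2 of 6 samples of 2x stood high, at 16.98% and 8.57%, and in 10x a single sample reached 9.76%. Each sample of 4x and of 0x was below 1%. The means were 4.31% ± 7.08 in 2x and 2.22% ± 3.79 in 10x (SD, n = 6 each), against 0.260% ± 0.346 in 0x (SD, n = 4). Neither difference from 0x passed (limma, adjusted p = 1 in 2x and 0.878 in 10x), and each was smaller than the SD of its treated group but larger than that of 0x.

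Itga6, on chr2:71786886-71858427, encodes the alpha6 chain, a receptor for laminin that is also carried by HSCs. Over its 3 tested promoter bins the means were 4.18% ± 5.64 in 0x (SD, n = 4), 2.03% ± 2.57 in 2x (n = 6), 2.94% ± 1.85 in 4x (n = 4) and 1.65% ± 0.971 in 10x (n = 6). The higher mean of 0x came from the bin centred 411 bp downstream of the start, which lay between 0 and 2.68% in 10x, with a median of 1.07%. In 0x it stood at 1.96, 0.239, 7.27 and 36.5%, so that the groups overlapped. The other 2 promoter bins averaged below 4% in every group. The Itga6 gene body, over 4 tested bins, averaged 68.9% ± 7.97 in 10x (SD, n = 6), against 74.3% ± 3.96 in 0x (SD, n = 4), a difference of -5.32 points (SE 4.15, limma, adjusted p = 0.756). Within it a coding exon bin stood at 73.8% ± 37.7 in 10x and 93.2% ± 8.57 in 0x, and its 10x values included 1 sample at 0 and 2 at 100. An intron bin 1611 bp from the start was low for a body bin, at 13.1% ± 18.8 in 10x and 13.05% ± 17.02 in 0x.

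Itga9, on chr9:118606709-118901003, encodes the alpha9 chain, which binds tenascin-C, osteopontin and VCAM-1. It is the longest of the genes and has the most bins, 280 of the 660. Its promoter, over 3 tested bins of 11 deposited, averaged 2.59% ± 1.217 in 10x (SD, n = 6) and 2.74% ± 1.44 in 0x (SD, n = 4), a difference of -0.147 points (SE 0.959, limma, adjusted p = 0.976). Its gene body, over 8 tested bins, stood at 92.8, 91.7, 78.9 and 93.6% in 0x. In 2x it had a lowest value of 87.4, a median of 92.7 and a highest value of 97.4%, and in 4x the samples were at 91.7, 88.7, 73.6 and 84.3%. In 10x all 6 samples lay between 81.6 and 84.9%, above the lowest sample of 0x and below the other 3. The difference between 10x and 0x was -6.58 points (SE 2.86, limma, adjusted p = 0.612 over 12323 gene bodies), and the slope was -0.847 points per cycle (SE 0.313, limma, adjusted p = 0.937). Both had an unadjusted p under 0.05. Without the 0x sample 13 the difference was -10.0 points (limma, adjusted p = 0.0657). With every deposited bin that varies, 141 in all, it was 1.217 points, and with the bins at a limit throughout a group 2.08 points, so that its sign turned.

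Among the 8 tested bins of the Itga9 body the largest differences between 10x and 0x were those of the 3 bins in and beside its exon 14, a coding exon of 155 bp at chr9:118689270-118689424 among 28 exons. The bin that holds the start of the exon stood at 41.8, 73.3, 62.6, 0, 80.95 and 46.0% in 10x, against 81.5, 75.0, 73.3 and 84.3% in 0x. Its difference was -27.8 points (SE 13.9, limma, adjusted p = 0.829), with 2 samples of 10x within the range of 0x and the other 4 below it. Its slope was -2.82 points per cycle (SE 1.12, limma, adjusted p = 0.975). The bin that holds the end of the exon stood at 95.1, 76.2, 90.5, 82.3, 54.5 and 77.3% in 10x, against 100, 100, 92.8 and 89.6% in 0x. It was the 1 integrin bin past the unadjusted threshold, with a difference of -16.3 points (SE 7.08, limma, adjusted p = 0.792). In 2x and 4x it averaged 88.7% ± 8.98 and 89.9% ± 16.3. The bin between them held repeated values and as deposited averaged 76.2% for 10x and 94.3% for 0x. The next bin upstream, in the intron, scattered over the whole range, with a 0x sample at 0 and another at 100, and differed by -12.2 points (SE 20.1, limma, adjusted p = 0.901). The label numbers were split for this comparison at 12, a division that the labels themselves do not make. Within the numbers up to 12 the Itga9 body differed between 10x and 0x by -10.5 points (2 samples each, p = 0.333 by exact permutation, which is the least this size allows). Within those from 13 it differed by -3.11 points (4 and 2 samples, p = 0.6 by exact permutation, where the least is 0.0667).

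Itga3, on chr11:95044475-95076844 on the minus strand, encodes the alpha3 chain, a laminin receptor best known from epithelia. RefSeq gives it 2 starts close together and another, internal one, and the deposited bins near them differed in level. The 13 bins within 1 kb of the upstream pair averaged 12.9% ± 3.90 for 0x, 10.9% ± 2.20 for 2x, 6.17% ± 0.877 for 4x and 8.61% ± 0.583 for 10x, as deposited. The 7 bins around the internal start averaged 95.7%, 96.0%, 90.9% and 97.0% in the same groups. Filling with group means narrows these SDs, and no test was made of them.

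The 1 tested promoter bin of Itga3, in a coding exon 464 bp downstream of a start, stayed near 0 in most samples. It stood at 0, 2.23, 0 and 0% in 0x. In 2x, 3 samples were at 0 and the others at 8.75, 7.19 and 25.0%. In 4x it stood at 1.89, 0, 5.48 and 0%. In 10x it stood at 3.27, 2.28, 1.97, 1.74, 0 and 0%. The differences from 0x were 6.27 points in 2x (SE 4.68), 1.28 in 4x (SE 1.47) and 0.986 in 10x (SE 0.926), with adjusted p of 1, 0.974 and 0.878 (limma). An exact permutation test of the samples, two-sided, gave p = 0.329, 0.714 and 0.333. Without the 2x sample 18 the 2x difference was 2.63 points. The 2 tested bins at the 3′ end of the Itga3 body averaged 96.4% ± 2.62 in 10x (SD, n = 6) and 90.8% ± 6.40 in 0x (SD, n = 4), a difference of 5.53 points (SE 2.89, limma, adjusted p = 0.669). Over the 30 deposited body bins that vary, where filled values count as measured, it was 9.19 points (SE 1.52, limma, adjusted p = 0.00198), in a fit that called 26.5% of all bodies. The tested bin upstream stood at 95.1% ± 4.51 in 10x and 94.6% ± 6.91 in 0x.

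**Figure D2:**
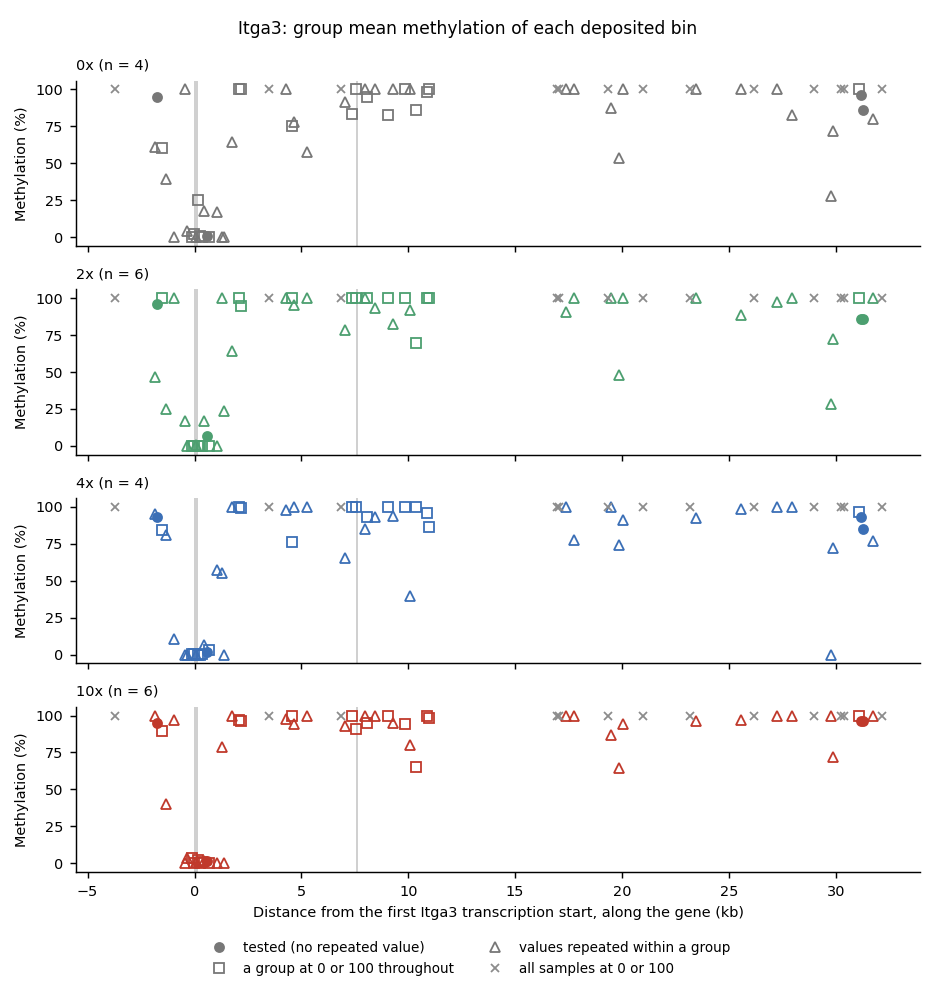
Group mean methylation (y axes, percent) of the 67 deposited bins of Itga3 against distance from its first start (x axis, kb, along the direction of transcription), with one panel for each group, grey lines at the curated starts and a symbol for each class of bin. Methylation is mostly close to 0 around the upstream starts and mostly above 75% in the body. Exceptions near the upstream starts include the bin at -439 bp (100% in 0x) and the bin at -939 bp (100% in 2x and 97.1% in 10x). The filled points, which were tested, are 4 of the 67 bins.

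The 2 largest promoter differences of Itga3 lay in bins with repeated values. The bin centred at -439 bp from the start stood at 100% in all 4 samples of 0x, at 16.7% in all 6 of 2x and at 0% in all samples of 4x and 10x. Since each group holds a single value, the number of samples in which this bin was measured is unknown. With filling by group means it can be as low as 1 in each group. The bin at -939 bp stood at 0% in all samples of 0x and 100% in all of 2x. In 4x it stood at 15.6, 0, 13.5 and 13.5%, and in 10x between 91.3 and 100%. These neighbours, at -439 and -939 bp, differed between 10x and 0x in opposite directions. In the gene body, 1164 bp downstream of the start, another bin stood at 0% throughout 0x, 100% throughout 2x and 55.3% throughout 4x, and averaged 79.0% ± 39.2 in 10x, where 1 sample was at 0. Over all promoter bins of Itga3 that vary between samples, the mean differed from 0x by -1.29 points for 2x, -6.40 for 4x and -2.50 for 10x (limma, adjusted p = 0.673, 0.141 and 0.369), the reverse of the sign in the tested bin.

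**Figure D3:**
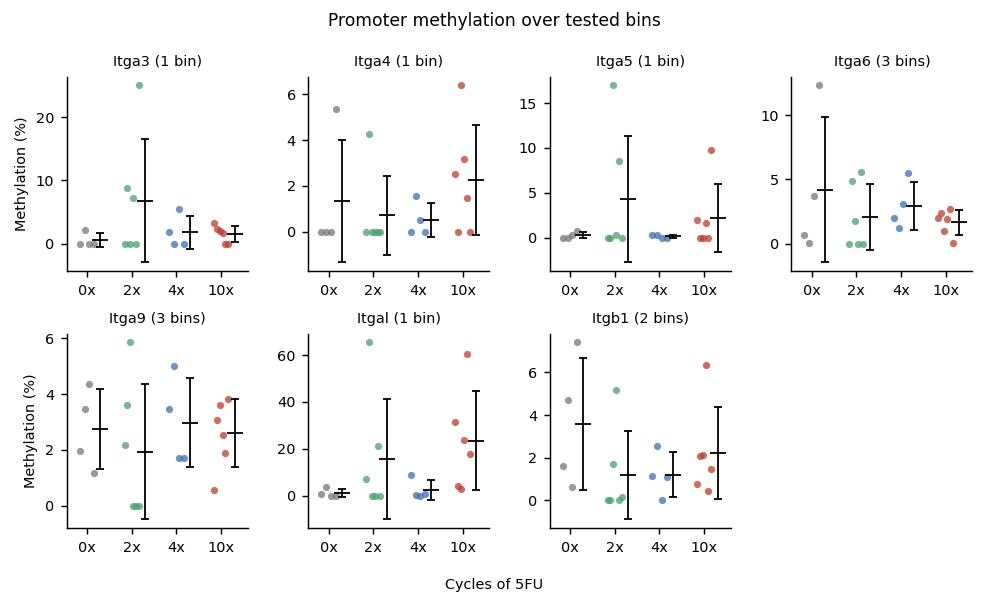
Promoter methylation (y axes, percent, with a scale of its own in each panel) by group (x axes) for the 7 integrin genes with tested promoter bins. Points are samples and the lines with bars are the mean and SD. The scale reaches 60.3% in 10x and 65.4% in 2x for Itgal, and stays at or below 25.0% in the other genes.

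Itgal was the member whose tested promoter bin varied most. It lies on chr7:127296139-127335137 and encodes the alphaL chain (CD11a), which with the beta2 chain forms LFA-1, the receptor for ICAMs on lymphocytes and other leukocytes. The bin lies in a coding exon, 190 bp downstream of the transcription start, and stood at 0.673, 3.83, 0 and 0% in 0x. In 2x the samples were at 7.35, 65.4, 0, 0, 21.4 and 0%, and in 4x at 8.78, 0.341, 0 and 0.602%. In 10x they were at 31.3, 4.17, 3.11, 23.7, 60.3 and 17.9%. All but 1 of the 10x samples lay above the highest sample of 0x, and the groups overlapped. The difference between 10x and 0x was 22.3 points (SE 10.0, limma, adjusted p = 0.865), and that in 2x was 14.6 points (SE 12.2, limma, adjusted p = 1). Within the lower label numbers the 10x difference was 15.5 points (p = 0.333 by exact permutation), and within the higher ones it was 26.2 points (p = 0.2 by exact permutation). The 3 promoter bins just upstream of it, in which some group is at a limit throughout, went the other way as deposited, with 2.74% ± 3.19 in 10x and 15.8% ± 12.2 in 0x. Over the 4 bins together 10x differed by -4.20 points (SE 4.54, limma, adjusted p = 0.724), and over all 5 that vary by -0.272. The 2x difference turned likewise, to -3.89 points over the 4 bins and -9.54 over the 5.

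Itgb2, on chr10:77530329-77565708, encodes the beta2 chain (CD18) shared by the leukocyte integrins. Its promoter had 2 deposited bins and no tested one, and the deposited means were 2.56% in 10x and 3.50% in 0x. Over the 2 tested body bins it averaged 70.5% ± 14.96 in 10x (SD, n = 6) and 59.7% ± 7.10 in 0x (SD, n = 4), a difference of 10.9 points (SE 7.48, limma, adjusted p = 0.735). The tested intron bin at 77537100 carried this difference. It stood at 48.6, 13.5, 19.3 and 25.0% in 0x, at 25.4, 36.2, 92.0 and 76.9% in 4x and at 21.2, 46.4, 42.2, 100, 35.4 and 46.3% in 10x. In 2x, 5 samples were at 0 and 1 at 100. The differences from 0x were -9.94 points in 2x (SE 20.2), 31.02 in 4x (SE 16.1) and 21.97 in 10x (SE 13.96), and none passed (limma, adjusted p between 0.856 and 0.998).

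A second Itgb2 intron bin, at 77548900, was at 0% in all 4 samples of 0x and methylated in every treated sample. It ranged from 37.0 to 100% in 2x, with a median of 82.9%, from 66.7 to 100% in 4x, and from 54.8 to 100% in 10x, with a median of 79.5%. The treated groups did not overlap with 0x, as in 4, 3 and 2 of the 126 integrin bins of its class for 2x, 4x and 10x, beside 2.99%, 2.17% and 1.61% over all such bins, but as the 0x samples hold a single value the bin was left out of the main test. With the bins at a limit throughout a group included, the Itgb2 body differed from 0x by 9.63 points in 2x (limma, adjusted p = 0.0259) and by 10.8 points in 10x (adjusted p = 0.0153), and in 4x by 10.9 points without passing (adjusted p = 0.157). The fit averages 12 body bins, and the bin at 77548900 is among them. Its treated means were 76.3, 85.8 and 80.5% (2x, 4x, 10x), against 0% for 0x. Another of them, an intron bin at 77562200, held 100% in every treated sample, against a 0x mean of 60.6%. Its 0x samples stood at 42.4, 0, 100 and 100%, so that the groups overlapped there. Since each of these bins has a group with a single value, any filled values count as measured. In the tested bins alone the 2x difference had the opposite sign, at -2.88 points. Of the 9 member bodies in that fit Itgb2 was the one to pass, and all bodies passed in 8.85% of cases for 2x and 4.41% for 10x. The repeated intron bin 10.7 kb into the gene stood at 0% in every sample of 0x, 40% in every sample of 2x and 4x and 100% throughout 10x.

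Itgam, on chr7:128062640-128118491, encodes the alphaM chain (CD11b), a marker of granulocytes and macrophages. Its tested body bin, in a coding exon, averaged 91.8% ± 7.45 in 10x (SD, n = 6) and 97.7% ± 4.55 in 0x (SD, n = 4), a difference of -5.95 points (SE 4.02, limma, adjusted p = 0.732). Its only promoter bin, centred 90 bp upstream of the start, held repeated values. It stood at 69.4, 49.2, 22.2 and 49.2% in 0x, at 0% in all of 2x and at 34.6, 0, 0 and 50% in 4x. In 10x, 4 samples were at 12.5% and the others at 31.2% and 0%. In the fit of all deposited promoters the differences were -47.5 points in 2x (adjusted p = 0.00139) and -34.0 in 10x (limma, adjusted p = 0.0336), in which filled values count as measured. It did not pass in 4x, at -26.4 points (adjusted p = 0.364), or for the slope, at -1.38 points per cycle (adjusted p = 0.546). That fit called 21.5% of all promoters for 2x and 15.2% for 10x.

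Itgb7, on chr15:102215994-102233405 on the minus strand, encodes the beta7 chain, which with alpha4 binds MAdCAM-1 in the gut. Its tested body bin, an intron bin 6985 bp from the curated start, was the lowest of the tested body bins, with all samples of 0x and 10x under 0.3%. Single samples reached 15.1% in 2x and 2.78% in 4x. The tested bin upstream, which lies within the neighbouring gene Rarg, stood at 96.6% ± 1.98 in 10x (SD, n = 6) and 99.2% ± 1.37 in 0x (SD, n = 4) and differed by -2.56 points (SE 1.45, limma, adjusted p = 0.847).

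**Figure D4:**
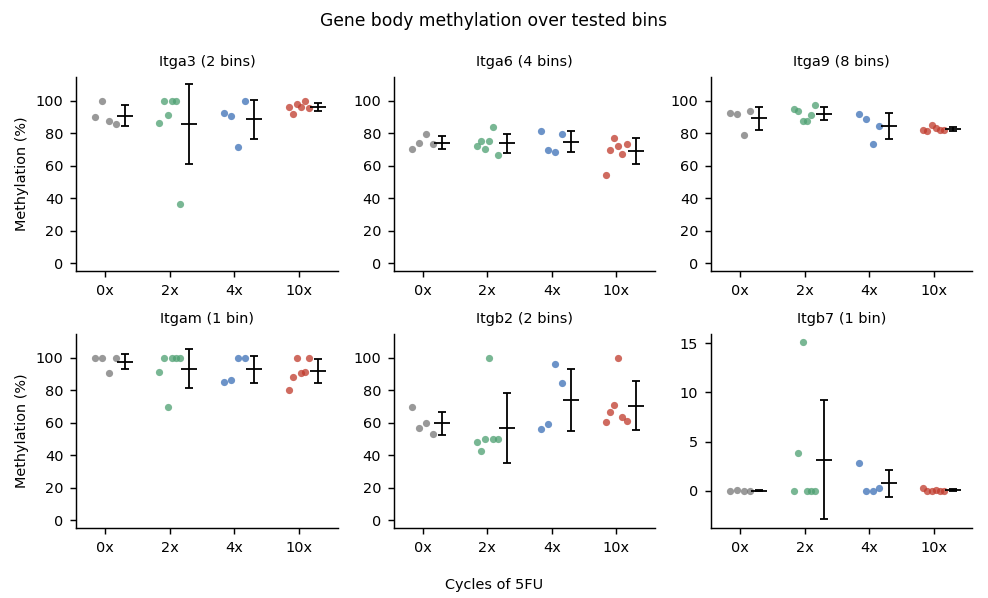
Gene body methylation (y axes, percent) by group (x axes) for the 6 integrin genes with tested body bins, with points for samples and lines with bars for the mean and SD. The 6 samples of 10x in Itga9 lie together between 81.6 and 84.9%, and the Itgb7 panel has a scale of its own because its bin is below 16% in every sample.

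Of the 6 gene bodies, 0 passed in any comparison among 12323 bodies tested (limma, adjusted p between 0.612 and 0.998), and 2 of the 24 tests, both of Itga9, had an unadjusted p under 0.05. Of all bodies 4.24% had one for 2x, 4.37% for 4x, 7.99% for 10x and 4.71% for the slope. All gene bodies passed in 0.00811% of cases in 2x, 0% in 4x, 0.0811% in 10x and 0.00811% for the slope. The levels of the bodies spread widely beside a median of 83.9% over all bodies, with Itgam at 93.7%, Itga3 at 90.6% and Itga9 at 87.2% above it. Itga6 at 72.7%, Itgb2 at 64.9% and Itgb7 at 1.12% were below it. These levels rest on the tested bins, of which Itgb2 had 2 and Itgb7 1. Over all deposited body bins Itgb2 averaged 87.8 to 90.3% and Itgb7 61.6 to 67.5% by group. Of the bodies without a tested bin, Itga4 averaged 92.5 to 100%, Itga5 68.1 to 72.4% and Itgal 82.1 to 89.7% by group, as deposited.

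In the 247 bins with repeated values, differences of at least 10 points were common in both directions and about as common as in all such bins. In 2x, 57 were higher and 44 lower than in 0x (23.1% and 17.8% of the bins), beside 20.3% and 20.9% over all bins of this class. In 4x, 63 were higher and 53 lower, beside 21.5% and 19.8%, and in 10x, 58 were higher and 49 lower, beside 21.9% and 19.1%. The median difference was 0 in each comparison. By gene, Itga3 had 10 bins higher and 4 lower of 31 in 10x, Itga6 had 11 and 2 of 36, Itga9 had 19 and 19 of 98, and Itgb2 had 3 and 8 of 21. In the 126 bins with a group at a limit throughout, 18 were higher and 11 lower in 2x, where all such bins gave 15.1% and 5.73%. In 4x, 17 were higher and 13 lower (13% and 11.8% over all), and in 10x, 17 were higher and 10 lower (12.9% and 7.01% over all).

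**Figure D5:**
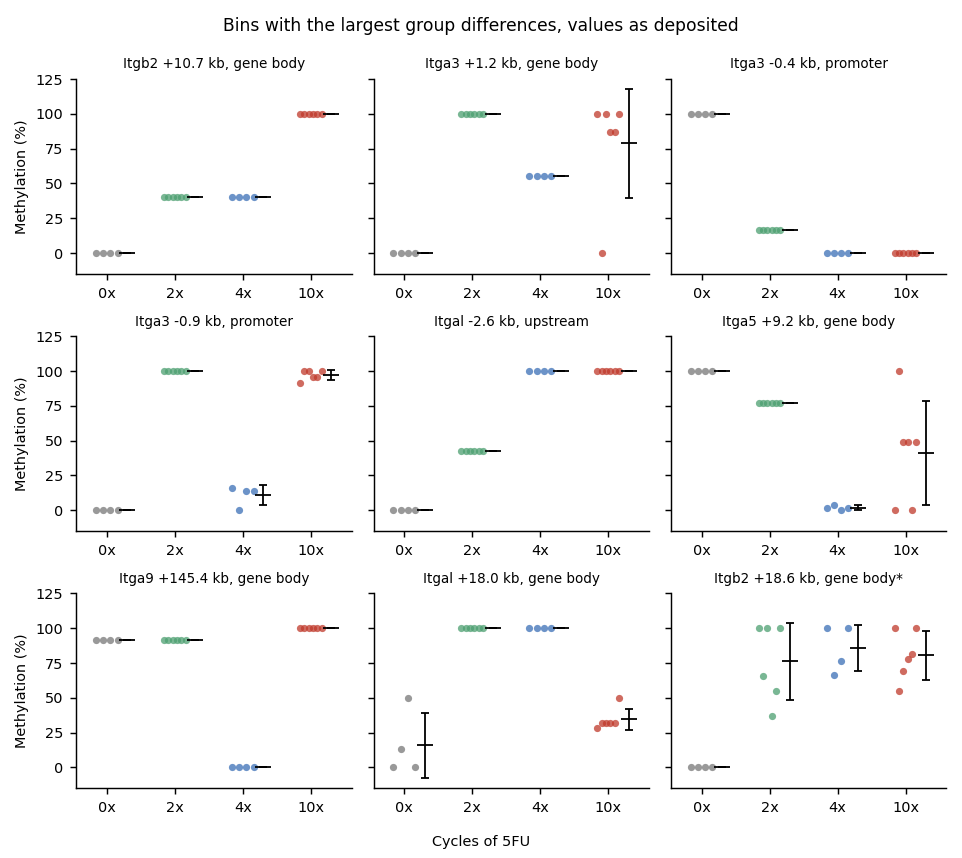
Values as deposited (y axes, percent methylation) by group (x axes) in 8 integrin bins with repeated values, those that differed most between groups, and in the Itgb2 intron bin marked with an asterisk, in which 0x is at 0 throughout. Points are samples, panels are named by gene and distance from the nearest start, and groups drawn as a flat row hold one value in all their samples, so their SD of 0 is not a measured spread.

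Among the other bins of this class chosen for their size, an Itgal bin at -2610 bp from the start stood at 0% throughout 0x, 42.2% throughout 2x and 100% in all samples of 4x and 10x. A coding exon bin of Itga5 stood at 100% throughout 0x and 76.9% throughout 2x, and averaged 1.85% ± 1.51 in 4x and 41.1% ± 37.5 in 10x. An Itga9 intron bin held 91.9% in every sample of both 0x and 2x, 0% in 4x and 100% in 10x. A coding exon bin of Itgal stood at 15.7% ± 23.6 in 0x, 100% in 2x and 4x and 34.5% ± 7.71 in 10x.

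The other genes of the pathway did not pass either, in lists that were chosen with earlier results of these data known. Of 16 other integrin subunits, 9 promoters and 14 gene bodies could be tested, and 0 passed in any comparison, as was true of 5 promoters and 5 bodies of 10 ligands and of 16 promoters and 13 bodies of 21 activators and adaptors. The median promoter difference between 10x and 0x was -0.532 points for the other subunits, 0.949 for the ligands and -0.0513 for the activators, beside -0.00589 over all promoters. At an unadjusted p under 0.05, 1 promoter and 1 body of the other subunits, 0 of the ligands and 1 promoter of the activators were past the threshold between 10x and 0x, beside the 5.77% of all promoters and 7.99% of all bodies given above. Itgav, the alphaV subunit, had a body bin at 97.6% ± 3.47 in 10x (SD, n = 6) and 81.7% ± 6.94 in 0x (SD, n = 4), a difference of 15.9 points (SE 3.22, limma, adjusted p = 0.186). Itga10, a collagen receptor of cartilage, had a promoter bin at 80.8% ± 12.8 in 10x and 97.4% ± 3.49 in 0x (-16.6 points, SE 6.21, limma, adjusted p = 0.759). Among the ligands, the promoter of Madcam1, which is bound by alpha4beta7, differed by 18.5 points (SE 9.63, adjusted p = 0.865, limma) and the body of Lama4, a laminin chain, by -4.15 points (SE 2.34, adjusted p = 0.695, limma). Sharpin, known as an inhibitor of integrin activation, had a promoter bin at 35.3% ± 15.6 in 10x and 12.95% ± 9.66 in 0x (22.3 points, SE 8.18, limma, adjusted p = 0.759). Rap1gap, which turns off Rap1, differed by -7.03 points over 8 promoter bins (SE 3.80, limma, adjusted p = 0.865).

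The promoters most like that of Itga3 over the 20 samples, of 15156 others, were Card19 (Pearson r = 0.926), Tmub2 (r = 0.921) and Slc37a2 (r = 0.920). In each of them, as in Itga3, the 2x sample 18 was highest, at 35.0%, 31.2% and 100%, and the points share this sample. RNA was not part of these files, so the sorted cells could be set against marker genes only by promoter methylation. The promoters of 4 of 8 stem cell genes with tested bins stood at 1.36 to 4.14%, the 2 of 4 erythroid promoters at 3.19 and 14.8%, the 1 of 6 lymphoid promoters at 81.7%, the 1 of 5 myeloid promoters at 53.5% and the 1 of 5 from other tissues at 19.8%. Of the 2 erythroid promoters, 1 lay within the range of the stem cell ones and 1 above it. Over the deposited promoter bins, 3 erythroid promoters had a median of 25.0% and the 8 stem cell promoters one of 3.02%. The stem cell promoters then ranged from 0.145 to 45.8% and the erythroid ones from 20.6 to 41.3%, so that the 2 lists overlapped. The 5 lymphoid promoters ranged from 19.1 to 100%, the 3 myeloid ones from 50.3 to 90.7% and 4 from other tissues from 23.7 to 94.8%.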

How the data were processed

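HSC methylation was measured by RRBS in 20 samples. According to the methods and the submitters' processing notes, reads were trimmed with Trim Galore 0.4.3, aligned to mm10 with Bismark 0.23.1 and processed with methylKit 1.22.0. Methylation was taken over the CpG sites of bins of 100 bp above a coverage minimum of 10, and missing bins were given the mean of their group. The deposited values are percent methylation, with no read numbers, so no depth, counting interval or detection limit is given here and no test on read numbers was run.

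Bins were placed on RefSeq genes of GRCm38.p6, and 99.8% of the 1201951 bins hold a CpG site when read from their start position to 99 bases beyond. Promoters are bins centred within 1 kb of a curated start. Gene means are over the tested bins. limma 3.58.1 in R 4.3.3 was fitted across all bins, promoters or bodies, each treated group with 0x and a slope over all samples, with Benjamini-Hochberg adjustment at 0.05 and, for bins, at least 10 points. Scripts were tested on simulated data with known differences. Other steps used Python 3.11.15, numpy 2.4.6, pandas 2.3.3, scipy 1.17.1 and matplotlib 3.10.9.

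The members, lists and rules were chosen with earlier results of these data known. Named were all 10 members, tested bins past the threshold or with an unadjusted p under 0.05 and at least 10 points, up to 8 bins with repeated values that differed most, the 2 genes of each other list with the smallest p between 10x and 0x where none passed, and the 3 promoters most like Itga3. Bins with a group at a limit, and any others, were picked with their values in view.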

Additional observations from a re-analysis of the deposited data

Results flagged for a closer look

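In 52 sets of samples (each tested promoter or gene body in each group), 18 held a sample that stood apart from the others of its group by Dixon's test, where chance flags about 1 in 20 groups of normal values. Over all promoters and bodies tested 22.5% of groups were flagged in the same way, beside 34.6% here, and the difference was not tested. In 5 of the 18 the other samples were all at 0 or all at 100, so that any step meets the rule. Among promoters, the highest samples that stood apart were at 5.34% (0x sample 14) and 4.26% (2x sample 04) in Itga4, 65.4% (2x sample 04) and 8.78% (4x sample 05) in Itgal, 5.17% (2x sample 16) and 6.36% (10x sample 32) in Itgb1, 2.23% (0x sample 02) and 25.0% (2x sample 18) in Itga3, and 9.76% (10x sample 34) in Itga5. Among gene bodies, the lowest were at 90.9% (0x sample 13) and 69.7% (2x sample 15) in Itgam, 78.9% (0x sample 13) in Itga9 and 36.7% (2x sample 18) in Itga3. The highest were at 100% in Itgb2 (2x sample 16 and 10x sample 32) and at 0.100% (0x sample 02), 15.1% (2x sample 15) and 2.78% (4x sample 05) in Itgb7.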

How the results depend on the processing

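With every deposited bin that varies, where filled values count as measured, the called integrin bins numbered 60 in 2x, 45 in 4x, 39 in 10x and 33 for the slope, the promoters 1 in 2x and 1 in 10x, and the bodies 6, 3 and 2 in 2x, 4x and 10x and 2 for the slope. With bins at 0 or 100 throughout a group added, there were 4, 2 and 1 bins in 2x, 4x and 10x, and 1 body in 2x and 1 in 10x. With repeated values set to missing there were 8, 6 and 6 bins, and 8 for the slope. All these counts were 0 in the tested bins. The same settings also called more of all features: with every deposited bin 14%, 9.99%, 10.8% and 9.23% of bins (2x, 4x, 10x and slope), 21.5% and 15.2% of promoters in 2x and 10x, and 33.1%, 20.1%, 26.5% and 18.1% of bodies. With limit bins added it was 1.64%, 0.933% and 0.924% of bins and 8.85% and 4.41% of bodies in 2x and 10x, and with repeated values missing 3.47%, 2.43%, 2.19% and 2.69% of bins. Of the 52 differences and slopes of member promoters and bodies, 27 changed sign with every deposited bin and 20 with limit bins added. Among them were the Itga3 promoter in 2x (-1.29 and -0.0506 points), 4x (-6.40 and -0.862) and 10x (-2.50 and -1.27), the Itgal promoter in 10x (-0.272 and -4.20), the Itga9 body in 10x (1.217 and 2.08) and its slope (0.000936 and 0.0723). The Itgal promoter in 2x (-9.54 and -3.89) and 4x (-4.90 and -6.02), the Itgb2 body in 2x (3.30 and 9.63) and the Itga3 body in 2x (6.37 and 1.11) and 4x (2.52 and 0.746) also turned. The Itga3 body passed with every deposited bin in 2x, in 10x (9.19 points, limma, adjusted p = 0.00198) and for the slope. In 2x the bodies of Itga6, Itga9, Itgal and Itgb2 also passed as higher and that of Itgam as lower (-8.34 points). In 4x Itgal passed as higher (14.2 points), and Itga4 (-12.8) and Itgam (-5.30) as lower. Itga4 passed in 10x (4.04 points, limma, adjusted p = 3.33e-08), where 0x and 10x each held a single value throughout. Itgb7 passed for the slope. A promoter window of 2 kb turned Itga3 in 4x to -0.220. In these settings the means cover more bins. Leaving out each sample in turn left every count at 0 and moved the Itga3 promoter over 2.63 to 7.63 points for 2x, 0.0723 to 1.90 for 4x and 0.642 to 1.54 for 10x. It moved the Itgal promoter over 14.9 to 26.4, the Itga9 body over -10.0 to -5.12 (adjusted p 0.0657 to 0.816) and its slope over -1.05 to -0.778. The other settings (log scale, variance trend, 1 fit of all groups, the label number as a block, minimum differences, at least 3 bins, other promoter windows) changed no call. In them signs were followed for the Itga3 promoter, the Itgal promoter in 10x, the Itga9 body and the bins at the edges of its exon 14 (slope only for the start bin). Apart from that promoter window none of these signs turned. The signs of the other member differences were not followed in these settings. No paired analysis was possible because the label numbers are not shared between groups. Read numbers were not at hand, so what depth limits is unknown.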
